A study of Mus musculus with 53 samples.

Results

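Tumours of a whole-genome-doubled (WGD+) form of the mouse mammary tumour line TA3 Hauschka were compared with tumours of its non-doubled (WGD-) form, both engineered lines, all grown in A/J mice and given vehicle. The members were the 3 columns titled as A/J, WGD+ and vehicle and the 3 titled as A/J, WGD- and vehicle, 6 of the 53 libraries of the series and 6 of the 24 in their table. The series measured bulk RNA of such tumours to study how genome doubling shapes breast tumour evolution. Its other libraries come from NSG mice, from tumours treated with YM-155, a compound that lowers survivin, from antibody-treated tumours and from a time course. In all 6 libraries used here, cells in Matrigel were injected into the inguinal mammary fat pad of A/J females aged 6 weeks, and the mice then had vehicle for 14 days. The make-up of the vehicle is not given in the labels. A/J is an inbred strain with an intact immune system. Whether each form of the line is 1 clone, and whether the 3 libraries of a group are 3 mice, is not stated in the labels. The p-values therefore cover only how the libraries of a group scatter, which may be technical. The genotype field of the sample labels goes against the title in 12 libraries of the table. 3 of those are the WGD+ vehicle libraries used here, and the title, which matches the column name, was followed.

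Whole-genome doubling duplicates every chromosome of a cell. Doubled cells must assemble spindles around more chromosomes and copy more DNA in each S phase, and many then lose or gain single chromosomes, so that doubling is a common early step towards aneuploid tumours. A tumour in a host with T cells also carries RNA of stroma and immune cells, and in bulk RNA fewer cells of a type cannot be told apart from less RNA per cell.

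All values are levels on the scale log2(CPM + 1), where CPM is the read count scaled to a common library total, and a change is the WGD+ mean minus the WGD- mean on that scale, which understates the change of low genes. A gene was called where limma's adjusted p was under 0.05. The 24 libraries held 3.23 M to 7.75 M reads, and WGD- replicate 2 was the shallowest. That library also stood apart. Its best correlation with any other library of the table was 0.942, against 0.972 for WGD- replicate 1, 0.981 for WGD- replicate 3, 0.986 to 0.987 for the WGD+ libraries and 0.979 to 0.99 for the other 18. The median standard deviation (SD) of a gene was 0.329 over the WGD- libraries and 0.197 over the WGD+ libraries. In the vehicle tumours of NSG mice, which share the estimate of the spread in the main model, it was 0.161 (WGD-) and 0.143 (WGD+). Genes of the labelled cell type were present in every library: Krt8, a keratin of luminal epithelium, was at 9.90, 10.36 and 10.36 in the WGD- and 9.59, 9.76 and 9.45 in the WGD+ libraries.

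WGD- replicate 2 held liver transcripts. Alb, which encodes albumin, the main plasma protein made by hepatocytes, was at 3.48, 10.04 and 6.01 in the 3 WGD- libraries and at 0.00, 2.16 and 0.79 in the WGD+ libraries. Replicate 2 was far above the rest, but the groups did not overlap, since the other WGD- libraries also exceeded all WGD+ libraries. The highest level among the other 18 libraries of the table was 6.35. Over the list of hepatocyte secreted proteins the mean level was 1.51, 6.22 and 2.75 in the WGD- libraries, 0.957, 1.28 and 1.02 in the WGD+ libraries, and 0.988 to 3.62 in the others. Over hepatocyte enzymes it was 0.423, 4.38 and 1.10 against 0.049, 0.234 and 0.092, with 0.034 to 1.67 in the others. The 38 genes of both lists together took 0.0451%, 0.345% and 0.0458% of the CPM in the WGD- libraries, 0.0868%, 0.0615% and 0.0748% in the WGD+ libraries and at most 0.135% in any of the other 18. By this sum, which the most abundant genes of the lists set, WGD- replicates 1 and 3 lay below all WGD+ libraries.

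Between the groups, 1534 of 13826 genes were called (11.1%), 871 higher in WGD+ tumours (6.3%) and 663 lower (4.8%). Without WGD- replicate 2 the count was 583 (4.22%), with 289 higher (2.09%) and 294 lower (2.13%). Of the 1534 genes, all kept their direction without that library and 482 kept their call, 253 higher and 229 lower. The 1052 others lost it. The change without replicate 2 was a median 0.846 times that with it. Replicate 2 was also the lowest of the 6 libraries in 71.1% of the genes called higher, against 16.8% for WGD- replicate 1 and 12.2% for replicate 3. It was the highest in 61.2% of those called lower, against 21.9% and 16.9%. In called genes no WGD+ library took these places, so shares over all genes are not a like baseline. Over all genes tested, WGD- replicates 1, 2 and 3 were the lowest in 14.5%, 32.4% and 14.8% and the highest in 13.6%, 26.9% and 15.8%.

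**Figure D1:**
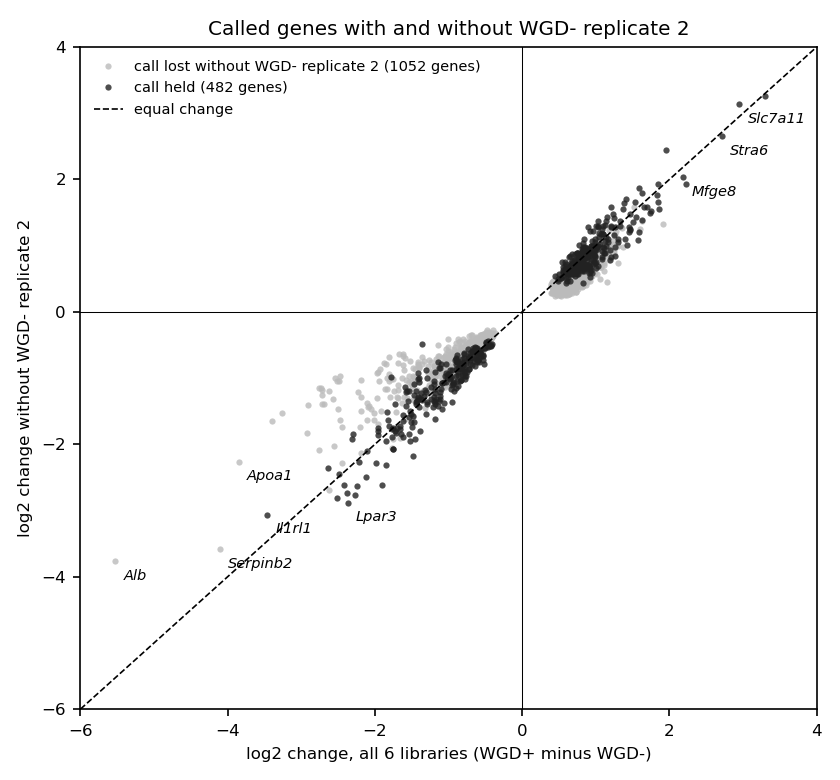
Change (WGD+ minus WGD-, log2 scale) of the 1534 called genes with all 3 WGD- libraries (horizontal axis) and without WGD- replicate 2 (vertical axis). Each point is a gene, coloured by whether it kept its call: 482 kept it, 1052 lost it, and none crossed 0.

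Other libraries moved the count as well. With WGD+ replicate 1 left out it was 634, and with WGD+ replicate 3 left out 445. It rose to 2444 when WGD- replicate 3 was left out. The 2 remaining cases, WGD+ replicate 2 and WGD- replicate 1, gave 1088 and 1618. It was 95 with WGD- replicates 1 and 2 both left out, 116 (0.839%) with only the 12 A/J libraries in the model and 44 (0.318%) with only the 6 libraries compared, where the spread is estimated from those libraries alone. With the liver genes left out and the libraries rescaled, 1653 genes were called, of which 69.8% were higher, against 56.8% in the main fit. The rescaling set every library to the same total and so replaced the TMM scaling. The median change over all genes went from 0.0283 to 0.101. The parts of the liver genes and of the rescaling in this were not told apart. A set of 298 genes (2.16%), 157 higher (1.14%) and 141 lower (1.02%), was called in each of the 6 fits that leave out 1 library. Of these, 109 (0.788%) were also called with only the 12 A/J libraries, 43 higher (0.311%) and 66 lower (0.477%).

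**Figure D2:**
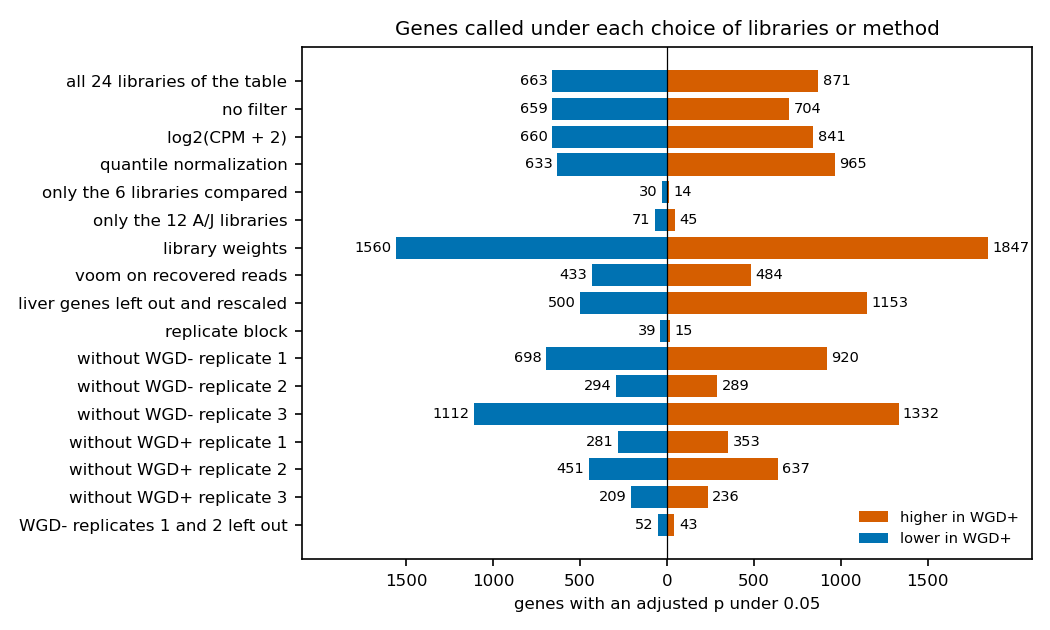
Number of genes called higher (right) and lower (left) in WGD+ tumours under each setting. The bars run from 44 genes in all with only the 6 libraries to 3407 with library weights, and leaving out WGD- replicate 2 gives 583.

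Of the genes that rose most, those described next kept their call in every one of those 6 fits. Slc7a11, the cystine importer that feeds glutathione synthesis, was at 3.11, 3.94 and 3.66 in the WGD- and at 6.27, 6.30 and 6.99 in the WGD+ libraries. No library of one group came near the other, and without replicate 2 the change went from 2.95 to 3.14 (limma adjusted p = 6.08e-07 and 3.11e-06). Slc7a11 lies at chr3:49892526-50443614 (mm10). Mfge8, a secreted bridge between phagocytes and dying cells that was first found on milk fat globules, was at 7.36, 7.17 and 7.93 against 9.60, 9.70 and 9.73. It rose by 2.19 (standard error, SE, 0.17, adjusted p = 6.39e-08), and by 2.03 without replicate 2.

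Pde2a, a phosphodiesterase that breaks down cyclic AMP and cyclic GMP, was at 5.85, 4.96 and 5.84 against 7.46, 7.48 and 7.28. Replicate 2 was the lowest library here, and without it the rise was 1.56 in place of 1.86. Prodh, the mitochondrial enzyme that starts proline breakdown, was at 3.11, 3.64 and 3.66 against 5.43, 5.17 and 5.32, a rise of 1.84 (SE 0.22, adjusted p = 2.27e-05). For Stc2, a secreted glycoprotein, replicate 2 lay nearest to the WGD+ tumours: the levels were 3.05, 4.49 and 2.99 against 5.67, 5.33 and 5.38, and the rise was 1.95 with that library and 2.44 without it. Stra6, the receptor that takes up retinol from its plasma carrier, rose by 2.71 (adjusted p = 0.0016), and Enpp3, an enzyme that cleaves nucleotides outside the cell, and Adgrg3, an adhesion receptor, rose by 1.85 and 1.83. With only the 6 libraries compared Slc7a11, Mfge8, Pde2a, Prodh and Stra6 were still called, and Stc2, Enpp3 and Adgrg3 were not (adjusted p = 0.0792, 0.0801 and 0.0749).

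Among the genes that fell most and kept their call in those 6 fits, Pappa had the tightest WGD- values. Pappa, a secreted protease that frees insulin-like growth factor from its binding proteins, was at 4.04, 4.16 and 4.09 in the WGD- and 1.84, 1.53 and 1.46 in the WGD+ libraries, a change of -2.48 (SE 0.46, adjusted p = 0.00272). Crabp2, a cytosolic carrier that hands retinoic acid to its nuclear receptor, was at 5.62, 4.56 and 5.25 against 2.04, 3.39 and 2.43. Its change was -2.52, and -2.81 without replicate 2, which was the lowest WGD- library. Within the list of retinoid uptake and signalling, 1 of 14 genes rose and 2 fell, against 6.3% and 4.8% of all genes. These are Stra6, Crabp2 and Crabp1, the last without a call when replicate 2 is left out (adjusted p = 0.114).

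Lpar3, a receptor for lysophosphatidic acid, was at 4.51, 2.5 and 3.55 against 0.63, 1.61 and 1.21. WGD- replicate 2 was again the nearest to the WGD+ tumours, and the change was -2.37 with it and -2.88 without it. Areg, which encodes amphiregulin, a ligand of the epidermal growth factor receptor that drives mammary duct growth, was at 6.10, 6.29 and 6.80 against 3.66, 4.48 and 4.42, a change of -2.21 (SE 0.25, adjusted p = 2.04e-05). Areg was chosen after its values were seen, as were Psma7, Lgals3, Cenpb, Map1lc3a, Aurka, Gbp2, Prf1 and Nqo1. Gpr153, an orphan receptor, and Matn4, a matrix protein, changed by -2.31 and -2.24, and by -1.92 and -2.63 without replicate 2. With only the 6 libraries Pappa and Crabp2 were still called, and Lpar3, Gpr153 and Matn4 were not (adjusted p = 0.0803, 0.0508 and 0.0602). Slc16a3, the lactate exporter, changed by -1.66 (adjusted p = 0.00207). Of 17 genes of hypoxia and glycolysis 2 fell, against 4.8% of all genes, and only Slc16a3 kept its call without replicate 2.

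**Figure D3:**
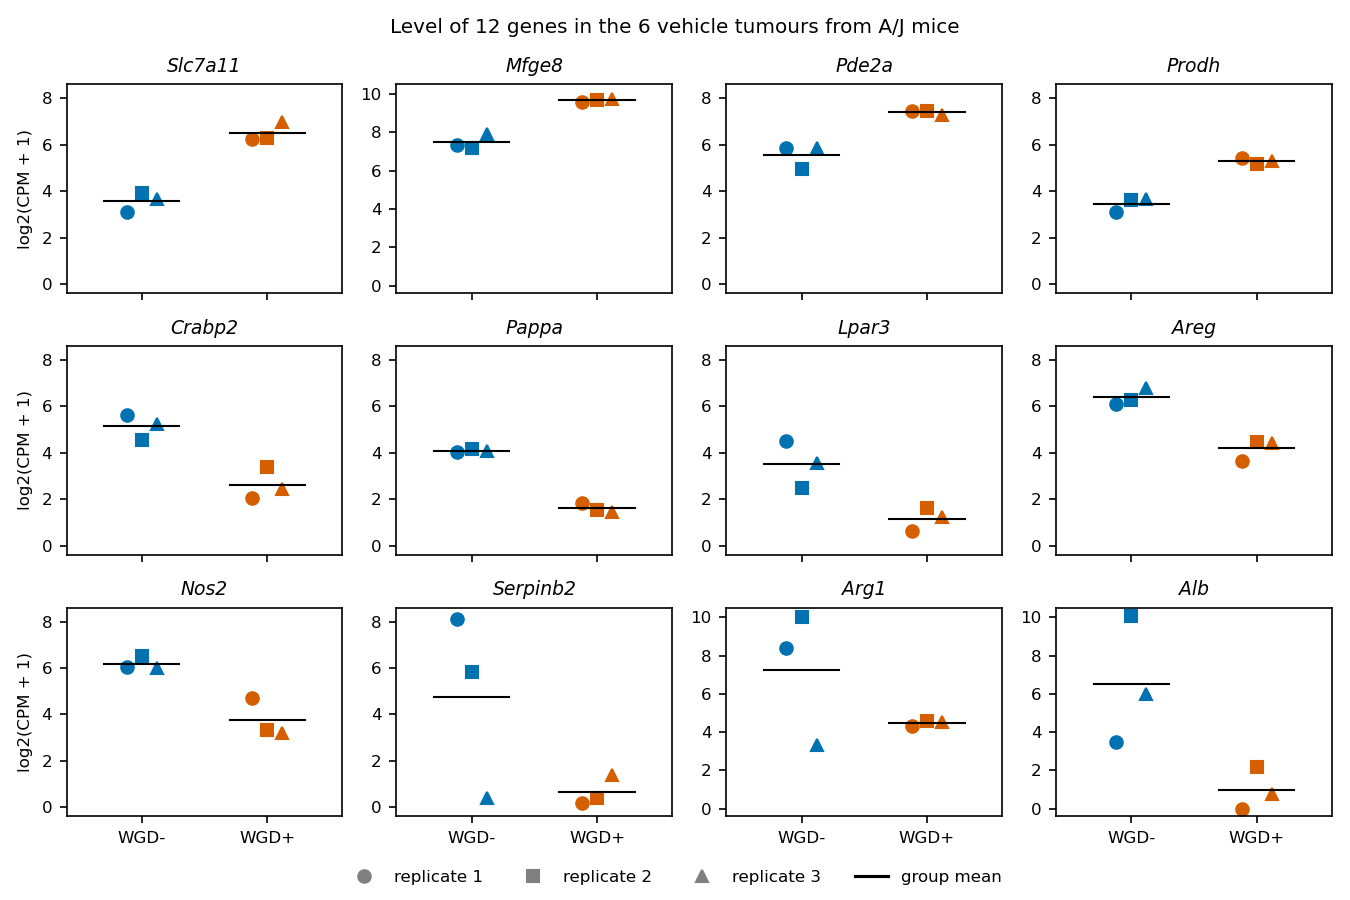
Level, log2(CPM + 1), of 12 genes in each of the 6 libraries: circles are replicate 1, squares replicate 2, triangles replicate 3, WGD- in blue and WGD+ in orange, with a line at each group mean. Slc7a11, Mfge8, Pde2a, Prodh, Crabp2, Pappa, Lpar3 and Areg separate in all libraries, whereas for Serpinb2 and Arg1 WGD- replicate 3 lies with the WGD+ tumours and for Alb replicate 2 stands alone at 10.04.

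Genes of the dividing cell were higher in the WGD+ tumours compared here. Of 27 genes of mitosis and the G2 phase, 15 rose and none fell, with a median change of 0.51 against 0.03 over all genes tested. Over all genes, 6.3% were called higher and 4.8% lower, and without WGD- replicate 2 these shares were 2.09% and 2.13%. Of 25 genes of DNA replication 11 rose (median 0.51), and of 13 genes of homologous recombination and checkpoint kinases 8 rose (median 0.66), with no fall in either list. These counts leaned on single libraries more than the medians did. Without WGD- replicate 2, 8 mitosis, 2 replication and 4 recombination genes were called, with medians of 0.50, 0.46 and 0.52. Without WGD+ replicate 3 the counts were 6, 3 and 4. With only the 12 A/J libraries in the model they were 1, 0 and 0, and with only the 6 libraries compared, or with a replicate block, none of the 3 lists had a call. Of the mitosis genes, 8 were called when WGD+ replicate 2 was left out, and 10 mitosis and 5 recombination genes when WGD+ replicate 1 was. In NSG vehicle, A/J YM-155, isotype and day 14 tumours the mitosis medians were 0.08, 0.08, 0.30 and 0.27. The replication medians were 0.01, -0.01, 0.34 and 0.10 there, and no gene of these lists was called higher. For the recombination list they were 0.26, 0.17, 0.38 and 0.05, with 1 rise called in NSG and 1 in isotype tumours.

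Mki67, the proliferation antigen Ki-67 that coats mitotic chromosomes, was at 8.01, 7.55 and 7.91 in the WGD- and 8.71, 8.71 and 8.84 in the WGD+ libraries. It rose by 0.93 (SE 0.16, adjusted p = 0.00171), and by 0.79 without replicate 2. Kif11, the motor that pushes the spindle poles apart, was at 5.42, 5.23 and 5.24 against 6.21, 6.19 and 6.57, a rise of 1.03 that was 1.00 without replicate 2. Aurkb, the kinase that corrects faulty chromosome attachments, rose by 0.91 in the same way, and Kif23, a motor of cytokinesis, by 0.81. In DNA repair, Fancd2 rose by 0.98, Exo1 by 1.08 and the checkpoint kinase Atr by 1.08, and all 7 genes of this paragraph kept their call in every fit that left out 1 library. With only the 12 A/J libraries 1 of the 7, Mki67, was called (adjusted p = 0.0371), and with only the 6 libraries none was (Mki67 adjusted p = 0.0707).

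The licensing genes Mcm2, Mcm3 and Mcm6, whose products form the replicative helicase, rose by 0.78 each, but without replicate 2 they were at 0.54, 0.47 and 0.56 and uncalled (adjusted p = 0.0533, 0.118 and 0.0677). Mcm5 was called with and without that library (0.72 in both). Birc5, which encodes survivin, a partner of Aurkb, was at 6.86, 7.0 and 6.97 against 6.64, 7.43 and 7.23, and its groups overlapped (change 0.16, adjusted p = 0.597). The mean level of the mitosis list was 6.53, 6.22 and 6.37 in the 3 WGD- libraries and 6.79, 6.93 and 6.98 in the WGD+ libraries, against 6.63 to 7.30 in the other 18 libraries of the table. All 3 WGD- vehicle libraries thus lay below every other library, and the WGD+ libraries lay inside the range of the rest.

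The promoters of Mki67 and Kif11 are shown because many mitotic genes carry a CHR element, the letters TTTGAA, and a CCAAT box. They are the 250 bases before the start, read 5′ to 3′ on the gene's strand, from RefSeq (build GRCm38.p6), chr7:135716380-135716629 on the minus strand and chr19:37376132-37376381 on the plus strand. Capitals mark both elements on either strand.
Mki67: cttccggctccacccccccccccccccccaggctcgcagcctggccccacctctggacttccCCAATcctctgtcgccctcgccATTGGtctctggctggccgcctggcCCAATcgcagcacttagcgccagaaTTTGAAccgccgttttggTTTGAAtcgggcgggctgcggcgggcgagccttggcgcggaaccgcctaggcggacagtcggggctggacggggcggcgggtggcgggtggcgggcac
Kif11: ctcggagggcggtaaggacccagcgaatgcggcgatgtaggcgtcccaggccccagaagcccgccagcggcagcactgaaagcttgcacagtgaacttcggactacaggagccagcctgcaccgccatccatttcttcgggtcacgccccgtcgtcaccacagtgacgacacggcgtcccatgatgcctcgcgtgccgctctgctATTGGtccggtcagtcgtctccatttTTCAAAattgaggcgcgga

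Mki67 held 2 CHR and 3 CCAAT matches and Kif11 held 1 of each. Of 27 mitosis genes, 21 were matched to a promoter, and 7 of those held TTTGAA (33.3%, against 10.7% of the promoters of all 10685 genes tested that were matched), 18 held CCAAT (85.7% against 36.0%). Among the 10 that were called, 5 held the CHR and 9 the CCAAT letters. These matches describe the sequences only.

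**Figure D4:**
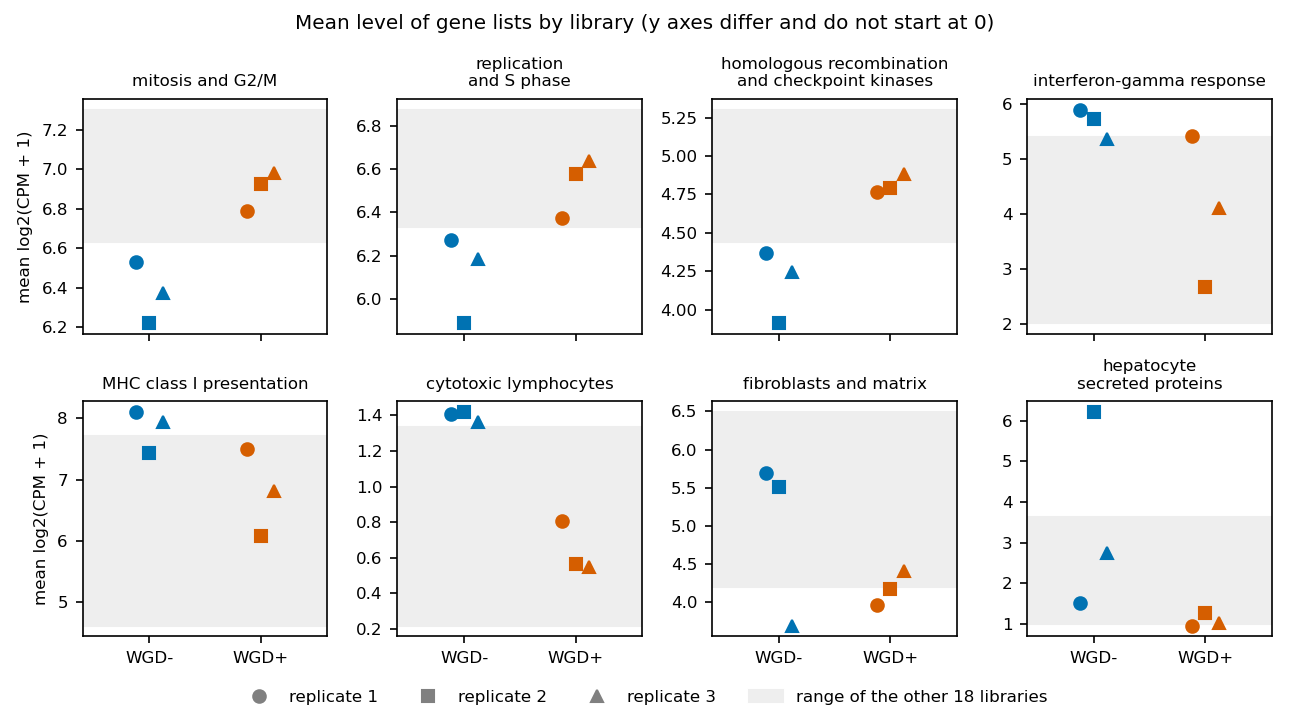
Mean level, log2(CPM + 1), of 8 gene lists in each library, WGD- in blue and WGD+ in orange, with the range of the other 18 libraries in grey. The WGD- libraries lie below the grey range for the mitosis list, and WGD- replicate 2 lies above it for the hepatocyte secreted proteins, at 6.22.

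The rise of cell cycle genes was uneven over the genome. Of the genes in those 3 lists, 15 lie on chromosomes 2, 5 and 14, of which 1 was called, Pole, with a median change of 0.18. Elsewhere 33 of 50 were called, with a median of 0.61. Over all tested genes, 1.56% were called higher on chromosomes 2, 5 and 14 (median -0.172) and 7.33% elsewhere (median 0.0693). Without replicate 2 the counts for the lists were 1 of 15 (median 0.09) and 13 of 50 (median 0.51). The shares of all tested genes were then 0.462% and 2.44%. The 6 mitosis genes of chromosome 2, Aurka, Bub1, Bub1b, Tpx2, Ube2c and Nusap1, were all uncalled, against 15 of 21 elsewhere. Of all tested genes of chromosome 2, 1.71% were called higher. Aurka, the kinase that matures spindle poles, was at 6.50, 5.68 and 6.51 in the WGD- and 6.47, 6.60 and 6.72 in the WGD+ libraries, so that WGD- replicate 2 alone was low. Its change was 0.37 with that library and 0.09 without it.

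Lower medians were also found over all tested genes of these chromosomes. Chromosomes 2, 5 and 14 had the lowest median changes of the genome, at -0.18, -0.17 and -0.16, and the 17 others (autosomes and X) ran from 0.018 to 0.13. On chromosome 2, 142 of 1051 tested genes were called lower and 18 higher, on chromosome 5 70 of 856 and 9, and on chromosome 14 54 of 472 and 10. The share called lower was 13.5%, 8.18% and 11.4%, against 4.8% of all genes and 3.48% over the other chromosomes, where 829 of 11314 genes were called higher and 394 lower. The 3 chromosomes held 17.2% of the genes tested, 40.1% of those called lower and 4.2% of those called higher. They held 51.8% of the 141 falls called in each of the 6 fits that leave out 1 library. The 3 chromosomes were grouped after these values were seen, so no test is given, and copy number was not analysed here.

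Single libraries showed it too. With each gene centred on its mean over the 6 libraries, the chromosome 2 median stood above that of the 17 others by 0.156, 0.0816 and 0.127 in the WGD- libraries and at -0.14, -0.113 and -0.108 in the WGD+ libraries. For chromosome 5 the values were 0.0987, 0.122 and 0.125 against -0.122, -0.122 and -0.119, and for chromosome 14 0.151, 0.0675 and 0.0699 against -0.0963, -0.137 and -0.0918. The gap between the groups was 0.19, 0.218 and 0.159. Of the 17 others, chromosomes 10, 11, 15 and 19 also separated the groups, by at most 0.0336, and 13 did not. Without WGD- replicate 2 the medians were -0.21, -0.19 and -0.18, with 91, 33 and 21 genes called lower.

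**Figure D5:**
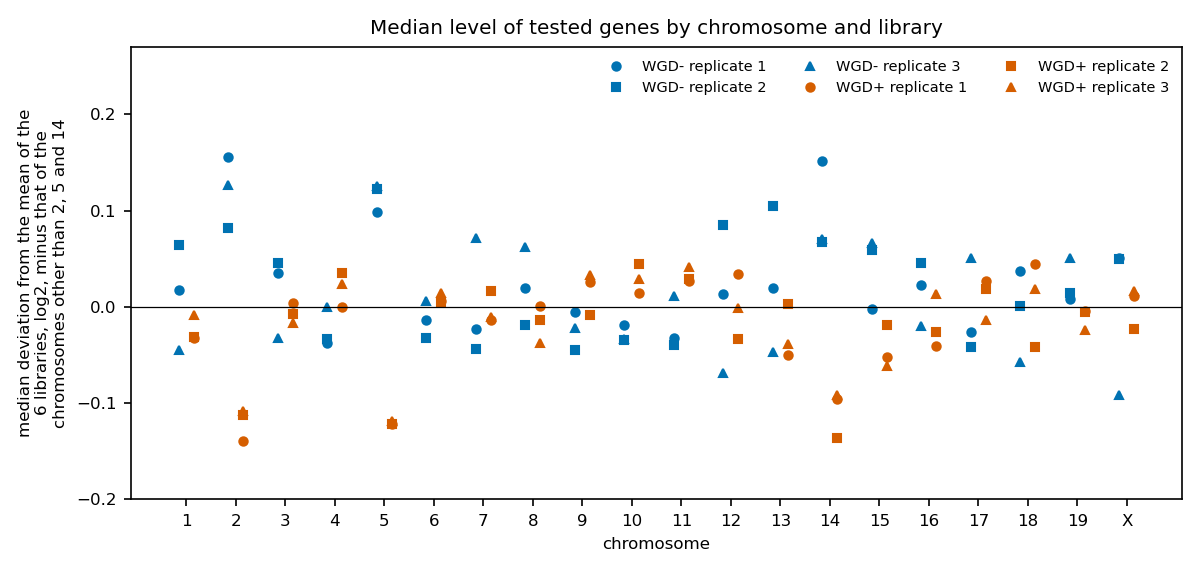
Median deviation of each chromosome's genes from their mean over the 6 libraries, less that of the chromosomes other than 2, 5 and 14, by library (log2 scale; WGD- blue, WGD+ orange). On chromosomes 2, 5 and 14 the WGD- libraries lie above 0 and the WGD+ libraries below it, with gaps of 0.19, 0.218 and 0.159, and elsewhere the groups overlap or lie within 0.0336 of each other.

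Chromosome 2 was not lower along its whole length. From 20 to 40 Mb the median change of 225 genes was -0.00, with 8 called lower and 8 higher, while the 77 genes from 80 to 100 Mb had a median of -0.30, the 107 from 100 to 120 Mb -0.29 and the 154 from 120 to 140 Mb -0.34. On chromosome 14 the medians of 20 Mb stretches ran from -0.21 to -0.11, save 7 genes from 80 to 100 Mb (0.09) and 17 from 120 Mb on (0.01). The same 3 chromosomes were the lowest in 3 of 4 comparisons that share no library with this one. The medians of chromosomes 2, 5 and 14 were -0.16, -0.13 and -0.15 in NSG vehicle tumours and -0.27, -0.19 and -0.18 in A/J tumours given YM-155. They were -0.16, -0.12 and -0.11 at day 14 of the time course. With isotype antibody they were -0.08, -0.02 and -0.09, where chromosome 5 was not among the 3 lowest.

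Psma7 and Lgals3 are 2 genes of these chromosomes called lower in each of the 6 fits that leave out 1 library. Their falls were far larger than the medians of chromosomes 2 and 14 (-0.177 and -0.159). Psma7, a subunit of the proteasome core at chr2:180036374-180042433, was at 9.43, 9.64 and 9.40 in the WGD- and 8.26, 8.62 and 8.44 in the WGD+ libraries, a change of -1.05 (SE 0.15, adjusted p = 0.000267). Lgals3, which encodes galectin-3 at chr14:47367751-47386160, was at 8.88, 9.48 and 9.02 against 7.75, 7.01 and 7.16, a change of -1.82. Without replicate 2 the changes were -0.97 and -1.64. Cenpb, a protein that binds centromere repeats, was at 8.48, 9.55 and 8.21 against 7.29, 7.44 and 7.26, and its change of -1.41 became -1.01. Map1lc3a, an autophagosome protein, changed by -1.41.

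Genes of amino acid supply rose as a partial group. Of 17 targets of ATF4, the factor of the amino acid stress response, 5 rose and 1 fell, with a median of 0.36. Over all genes 6.3% rose and 4.8% fell. Without replicate 2, 4 of the targets rose and none fell. With only the 12 A/J libraries 2 rose, and with only the 6 none did. Phgdh and Psat1, the first enzymes of serine synthesis, rose by 0.87 and 0.81, and Shmt2, which passes serine carbon to folate, by 0.92. These 3 kept their call in each fit that left out 1 library, but with only the 6 libraries compared none of them did. Phgdh was at 8.95, 8.54 and 9.09 against 9.68, 9.66 and 9.84, with no overlap. Mthfd2 rose by 0.75 and Slc7a5 by 0.91, the latter without a call when replicate 2 is left out (adjusted p = 0.134), and Cebpb changed by -1.30. When WGD- replicate 1 or WGD+ replicate 2 or 3 was left out, 3 rises were called.

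The wider glutathione list did not follow Slc7a11. Of 17 genes of cystine import, glutathione and NRF2, 3 rose, against 6.3% of all genes, with a list median of 0.01. Besides Slc7a11 these were its partner chain Slc3a2 (0.83) and the thioredoxin reductase Txnrd1 (0.54), and neither passed without replicate 2 (adjusted p = 0.069 and 0.0795), nor did they without WGD+ replicate 3. Nqo1, a standard NRF2 target, was at 4.26, 4.42 and 4.28 against 4.14, 4.37 and 4.48. In a list of 11 genes of the unfolded protein response 2 rose, the chaperone Hyou1 and Xbp1, a transcription factor of that response, and none did without WGD- replicate 2 or without any 1 of the WGD+ libraries (1 did without WGD- replicate 3).

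Genes induced by interferon-gamma, the cytokine that T and NK cells use to raise antigen presentation, had lower means in WGD+ tumours, but few passed. Of 18 tested, all 18 had a change below 0, with a median of -1.66, and 3 fell: Ido1, Nos2 and Socs1. Of 21 genes of the type I interferon response none was called (median -0.79). Of 14 genes of MHC class I presentation 2 fell (median -1.05) and of 8 of class II none (median -1.01), against 4.8% of all genes. Without replicate 2, 1, 0, 2 and 0 genes were called, with medians of -1.56, -0.78, -1.35 and -1.11.

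The WGD+ tumours spread widely here. The mean level of the interferon-gamma list was 5.90, 5.72 and 5.35 in the WGD- libraries and 5.41, 2.67 and 4.11 in the WGD+ libraries. WGD+ replicate 1 was at or above the lowest WGD- library in 13 of the 18 genes, in 17 of 21 type I genes, in 7 of 14 class I and 5 of 8 class II genes. WGD+ replicate 2 was the lowest of the 6 libraries in 15, 19, 13 and 8 of them. Gbp2, a guanylate-binding protein and a standard interferon target, was at 8.27, 7.77 and 7.52 against 7.75, 3.73 and 5.85. Leaving out WGD+ replicate 1 called 6 interferon-gamma genes, and leaving out WGD+ replicate 2 or 3 called 1. The 2 class I genes lost their calls without WGD+ replicate 2 or 3. With only the 12 A/J libraries no gene of these 4 lists was called, and with only the 6 libraries 2 interferon-gamma and 1 class I gene were.

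Ido1, which breaks down tryptophan, was at 1.34, 2.75 and 1.41 in the WGD- and 0.49, 0.21 and 0.00 in the WGD+ libraries, low in all of them. Its change was -1.60 (SE 0.33, adjusted p = 0.00476), and -1.14 without replicate 2, which was its highest library. Nos2, the inducible nitric oxide synthase, was at 6.05, 6.54 and 5.98 against 4.71, 3.32 and 3.18 and lost its call without replicate 2 (change -2.45, then -2.28, adjusted p = 0.0795). Socs1, the feedback inhibitor of interferon signalling, was at 6.01, 5.46 and 5.71 against 4.57, 4.34 and 4.31. The groups did not overlap, yet its call (change -1.32, adjusted p = 0.0443) was lost in every fit that left out 1 library. Psme1 and Psme2, the proteasome activator subunits that shape peptides for MHC class I, changed by -1.04 and -1.30, and both lie on chromosome 14.

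The Socs1 promoter (RefSeq, GRCm38.p6, chr16:10785537-10785786, minus strand, the 250 bases before the start) is shown for its interferon-response element. Capitals mark matches to the core of that element, GAAA followed by any 2 bases and GAAA again, searched on both strands.
Socs1: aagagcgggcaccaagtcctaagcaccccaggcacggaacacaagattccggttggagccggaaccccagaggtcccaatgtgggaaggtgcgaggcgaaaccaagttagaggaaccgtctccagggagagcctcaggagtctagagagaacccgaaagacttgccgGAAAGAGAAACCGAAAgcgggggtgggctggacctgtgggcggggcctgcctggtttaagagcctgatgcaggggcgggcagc

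It held 2 overlapping matches to this core and none to TTCNNNGAA, the letters of the gamma-activated site. Of the 18 interferon-gamma genes 13 were matched to a promoter. The core was in 9 of them (69.2%, against 2.8% of all promoters matched) and TTCNNNGAA in 5 (38.5% against 5.8%).

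Markers of cytotoxic lymphocytes were low in every library and lower in WGD+ tumours. Of 12 such genes 8 passed the filter of 1 CPM in at least 3 libraries. Of these 8 genes 3 fell, against 4.8% of all genes, and none rose, with a median of -0.85. In each fit that left out 1 library 3 were called. Over all 12 the mean level was 1.41, 1.42 and 1.36 in the WGD- and 0.807, 0.564 and 0.545 in the WGD+ libraries. With only the 12 A/J libraries 1 was called, Nkg7, and with only the 6 libraries or a replicate block none was. In NSG vehicle, A/J YM-155, isotype and day 14 tumours the list medians were 0.0, -0.285, -1.724 and -2.566. At day 14, 3 falls were called, against 0.445% of all genes called either way, and none in the others. Nkg7, a granule protein of NK cells and killer T cells, was at 1.96, 2.41 and 2.25 against 0.75, 0.00 and 0.00, and changed by -1.96 (SE 0.30, adjusted p = 0.000563). Cd8a, the co-receptor of killer T cells, was at 1.82, 2.20 and 1.33 against 0.49, 0.21 and 0.00. Gzma, a granule protease, changed by -1.10. Without replicate 2 the changes of Nkg7, Cd8a and Gzma were -1.86, -1.34 and -1.17. Prf1, the pore protein of the same granules, was at 2.02, 0.78 and 1.71 against 1.06, 1.61 and 0.91, and its groups overlapped. Of 5 T cell genes tested, of 12 listed, Cd2 fell (-1.08), a call lost without WGD+ replicate 3. Of 16 macrophage and 9 neutrophil genes tested none was called.

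Inflammatory mediators fell in part. Of 15 cytokines and mediators 4 fell, against 4.8% of all genes, and none rose (median -0.72). Without replicate 2, 3 of them still fell, against 2.13% of all genes (median -0.36). Ptgs2, the inducible cyclooxygenase, was at 6.34, 6.61 and 4.87 against 4.24, 4.25 and 4.13, a change of -1.73. Ptges, which acts next to make prostaglandin E, was at 5.48, 4.89 and 4.62 against 2.96, 3.91 and 3.51, a change of -1.53, and lies on chromosome 2. Both kept their call in every fit that left out 1 library and with only the 12 A/J libraries, not with only the 6 (adjusted p = 0.0977 and 0.0801). Il1b was at 3.78, 7.24 and 4.46 against 3.17, 3.10 and 3.29, with replicate 2 far above the other 5 libraries (change -1.97, adjusted p = 0.0416, then -0.93, adjusted p = 0.185).

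Some falls came from WGD- replicates 1 and 2 together. Serpinb2, an inhibitor of plasminogen activation, was at 8.10, 5.81 and 0.38 in the WGD- and 0.18, 0.40 and 1.38 in the WGD+ libraries. Replicate 3 lay with the WGD+ tumours, and the change of -4.11 (adjusted p = 0.0392) lost its call without replicate 2 (-3.59, adjusted p = 0.159). Il1rl1, the receptor for interleukin-33, was at 5.54, 4.74 and 1.57 against 0.00, 0.56 and 0.91, and Ptx3, a soluble pattern-recognition protein, at 4.01, 3.60 and 1.49 against 0.96, 0.21 and 0.00. These 2 did not overlap and kept their call in each fit that left out 1 library (changes -3.46 and -2.64), though not with only the 6 libraries compared (adjusted p = 0.146 and 0.0975). Arg1, which depletes arginine, was at 8.40, 10.03 and 3.33 against 4.32, 4.58 and 4.54 and was not called (adjusted p = 0.077).

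Some stromal genes had the same shape. Dcn and Lum, matrix proteoglycans of fibroblasts, were at 5.95, 7.14 and 1.77 against 1.60, 1.82 and 2.65, and at 3.02, 2.75 and 0.20 against 0.35, 0.21 and 0.37. They were the 2 genes called of 15 fibroblast and matrix genes (changes -2.93 and -1.68), against 4.8% of all genes called lower. Both lost their calls without replicate 2 (adjusted p = 0.185 and 0.176). Of the 15 genes, 12 had a change below 0 and 3 above. None of the 15 was called without WGD- replicate 1 or without any single WGD+ library, and 6 were without WGD- replicate 3. Without replicate 2 the 1 gene called was Col6a1, a collagen of the pericellular matrix, at 9.22, 6.62 and 8.4 against 7.61, 7.72 and 7.29. For Col6a1, replicate 2 and not replicate 3 was the lowest WGD- library. The mean level of the list was 5.70, 5.52 and 3.70 in the WGD- and 3.97, 4.18 and 4.42 in the WGD+ libraries. Among the 663 genes called lower, 89 exceeded the highest WGD+ library by more than 1 in WGD- replicates 1 and 2 only, 148 (22.3%) in replicate 2 only and 34 in all 3. In 291 no WGD- library did.

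Of 14 complement genes 3 fell, against 4.8% of all genes. They were C1s1, C4b and Serping1 (list median -0.50, against -0.30 without replicate 2). Only C1s1, a protease of the classical pathway, kept its call without replicate 2. C1s1 was at 6.59, 6.11 and 6.19 against 4.71, 4.04 and 4.58, a change of -1.85. Among 14 keratin and adhesion genes 4 fell and 1 rose, against 4.8% and 6.3% of all genes. Krt7 was at 8.52, 8.68 and 9.04 against 7.62, 7.90 and 7.16 (change -1.19) and Krt17 at 7.49, 7.85 and 7.65 against 5.78, 6.75 and 6.43 (change -1.34). Krt23 rose by 1.53. Without replicate 2, Krt7 and Krt23 were still called (adjusted p = 0.0351 and 0.0498) and Krt17 was not (adjusted p = 0.069). The number of falls called was 1 when any of WGD- replicate 2, WGD+ replicate 1 or WGD+ replicate 3 was left out, and 2 when WGD+ replicate 2 was.

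The liver genes themselves depended on the same library. Of 18 hepatocyte secreted proteins tested, of 20 listed, 7 fell (median -2.66), against 4.8% of all genes. Of 10 hepatocyte enzymes tested, of 18 listed, 4 fell (median -2.04). Genes near 0 in the WGD+ libraries can pass the filter only through other libraries, so these medians may lean below 0. None of either list was called without replicate 2 (medians -1.15 and -0.77), when 2.13% of all genes were called lower. For Alb the change was -5.53 (adjusted p = 0.0155) and then -3.76 (adjusted p = 0.094). Apoa1, the protein of high-density lipoprotein, was at 1.68, 7.22 and 3.22 against 0.00, 0.56 and 0.00, with replicate 2 far above the rest. Nor was any enzyme called without WGD+ replicate 1, 2 or 3, and of the secreted proteins 2 were called without WGD+ replicate 2 and none without replicates 1 or 3. Without WGD- replicate 1, 15 secreted proteins and 9 enzymes were called, and without WGD- replicate 3, 9 and 8.

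S100a9, an abundant protein of neutrophils, was at 5.29, 10.05 and 6.08 in the WGD- and 5.16, 5.95 and 5.43 in the WGD+ libraries, so that replicate 2 was high in this marker too. It was not called (adjusted p = 0.165). The mean level of the acute phase list was 2.48 in WGD- replicate 1 and 4.29 in replicate 2. The part of liver, neutrophil or stromal RNA in the other calls was not tested.

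The remaining lists had few calls, to be set beside the 6.3% of all genes that rose and the 4.8% that fell. Of 18 chemokines Ccl4 and Cxcl12 fell (-1.97 and -2.09). None was called without WGD- replicate 2, 1 without WGD+ replicate 2 or 3, and 9 without WGD- replicate 3. Of 14 genes of cholesterol synthesis Fdft1 and Fdps fell (-0.70 each), 2 were called without WGD- replicate 2, 1 without WGD- replicate 3 and none without any 1 of the WGD+ libraries. Of 11 endothelial genes Esam, a junction protein, rose by 1.11, and of 19 p53 targets Btg2 changed by -0.97, neither called without replicate 2. Of 7 acute phase genes of liver 2 fell, of 6 dendritic cell genes 1 and of 6 mast cell genes 1. None of these lists had a call without WGD- replicate 2. None was called of 10 genes of centriole duplication, 8 targets of the Hippo pathway, 9 genes of mesenchymal transition, 10 of adipocytes or 12 of skeletal muscle. Nor was any of 8 tested genes of cytosolic DNA sensing, 8 checkpoint receptors and ligands or 4 of mammary secretory epithelium. The same held for 2 of B and plasma cells, 1 of eosinophils and 1 of red cells.

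The same direction was common in comparisons that share no library with this one. In NSG mice, which lack T, B and NK cells, 1245 of the 1534 genes changed in the same direction with vehicle (81.2%, against 61.6% of all genes tested), and 159 were called the same way, of 394 called there (2.85%). With YM-155 in A/J mice these counts were 1249 (81.4%, against 61.1%) and 116 of 234 (1.69%). With isotype antibody they were 1392 of 1495 genes tested there (93.1%, against 70.0%) and 63 of 152 (1.1%), and at day 14 of the time course 1169 of 1486 (78.7%, against 61.0%) and 16 of 60 (0.445%). 1 gene was called the same way in all 4 A/J comparisons. It was Gpr137b, a lysosomal membrane protein, at 6.48, 6.29 and 6.96 in the WGD- and 5.64, 5.74 and 5.54 in the WGD+ libraries, with a change of -0.94. Without WGD- replicate 2 there were 2 such genes.

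Whether the change differed between A/J and NSG hosts given vehicle was tested with an interaction term. With limma, 0 of 13826 genes passed (0.0%), 1787 had an unadjusted p under 0.05, and voom also called 0. The count was 135 without WGD- replicate 3 of the A/J group. The smallest p-values belonged to Chtf18, a loader of the replication clamp, with a difference between hosts (A/J minus NSG) of 1.25, and Hmgn2, a nucleosome-binding protein, with 1.32 (adjusted p = 0.177 for both). Mki67 changed by 0.36 in NSG mice (adjusted p = 0.255) and Aurkb by -0.06, against 0.93 and 0.91 in A/J mice, and the median change of the mitosis list was 0.08 in NSG mice. Slc7a11 rose by 2.59, Mfge8 by 1.99 and Pappa changed by -3.08 there. For the interferon-gamma list the median was 0.52 in NSG mice. Their strain, on the NOD.Cg background, carries Prkdcscid, Il2rgtm1Wjl and a transgene of IL3, CSF2 and KITLG driven by CMV. In A/J tumours given YM-155 the median of this list was -0.647, with no gene called. With isotype antibody it was -1.505 with 1 fall called, and at day 14 -2.428 with 6. Over all genes, 1.1% and 0.445% were called either way in these last 2 comparisons.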

How the data were processed

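RNA of tumours was sequenced from TruSeq stranded mRNA libraries, per the labels' protocols. The authors deposited log2 values scaled by TMM, log2(CPM + 1) as the recovered reads show, per the file names and values; STAR 2.5.1b, edgeR and the build mm10 are named per the submitters' processing notes, and the annotation and counter are not given in these sources. Every value below 200 reads was a whole number of reads within 0.1 of a read, once each library's total was scaled by a factor of 0.863 to 1.10. 27 symbols that read as dates were left out. Genes above 1 CPM in at least 3 of the 24 libraries were fitted with limma 3.58.1 in R 4.3.3 (a mean for each of 8 groups, trended and robust variance, Benjamini-Hochberg adjustment over 13826 genes); the script was tested on simulated data. Coordinates are GENCODE M21 on mm10. The members, gene lists and naming rule were chosen with earlier results of these data known. Named genes were up to 8 with the largest change each way among those called, not overlapping between groups and called without WGD- replicate 2; the 4 largest falls; the 4 largest changes that lose their call without it; up to 4 members a list; and Birc5. Alternatives were another pseudocount, filter, normalization, set of libraries, library weights, voom on the recovered reads, liver genes left out, a replicate block and each library left out. 1 read was worth 0.134 to 0.358 CPM, so levels under about 1 rest on few reads.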

Additional observations from a re-analysis of the deposited data

How the results depend on the processing

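Against 1534 called genes (871 higher, 663 lower), a model of only the 6 libraries compared gave 44 (14, 30), one of the 12 A/J libraries 116 (45, 71), library weights 3407 (1847, 1560) and voom on recovered reads 917 (484, 433). Leaving out 1 library gave 445 to 2444 genes, 236 to 1332 higher and 209 to 1112 lower, and leaving out WGD- replicates 1 and 2 gave 95 (43, 52), with the lone WGD- library taken to vary like the other groups. The counts with no filter (1363), log2(CPM + 2) (1501), quantile normalization (1598) and liver genes left out with rescaling (1653) were within 1.5 times. The cause of these differences was not tested. Fewer libraries leave fewer degrees of freedom for the spread. The models of the 6 and 12 libraries also leave out the NSG groups. The vehicle groups of NSG mice had median SDs of 0.161 and 0.143, against 0.329 and 0.197 in the 2 groups compared. Library weights put 9.36 on WGD+ replicate 3 and 0.153 on WGD- replicate 2. The host difference gave 0 genes, 2 with only the 12 vehicle libraries, 1223 with library weights and 0 to 135 over the fits that leave out 1 library. Genes called in all 4 A/J comparisons numbered 1, 0 with the 6 or 12 libraries, 2 with library weights and 1 to 2 over the fits that leave out 1 library. With WGD- replicates 1 and 2 left out, Serpinb2 turned to 0.27, Dcn to 0.25 and Lum to 0.11. Of the 84 named genes that were called, 72 lost the call with only the 6 libraries, 70 with the replicate block, 65 with WGD- replicates 1 and 2 left out (besides the 3 above), 60 with the 12 A/J libraries, 39 without WGD- replicate 2, 39 without WGD+ replicate 3 and 2 to 29 under each other setting.

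With a replicate block, the pairing of equal replicate numbers gave 54 called genes (15 higher, 39 lower) and 0 genes called in all 4 A/J comparisons. The deviations of same-numbered libraries correlated at -0.001, 0.032 and -0.173, and no WGD- library correlated best with its own number. With 3 libraries a group, these correlations cannot exclude that the numbers pair the libraries. The difference of each of chromosomes 2, 5 and 14 from the others stayed below 0 under all 16 settings, from -0.269 to -0.102, -0.277 to -0.128 and -0.256 to -0.0816, a measure added after the data were seen.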
